A study of Homo sapiens with 6 samples.

Results

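The regions described here are small stretches of chromatin that carried H3K27me3 in both cultures of the study and lay away from any H3K4me3. They were found by joining the H3K27me3 peaks of both cultures on chromosomes 1 to 22 across gaps of up to 3 kb, which gave 7736 loci. A locus was kept when it held a peak in both cultures, when peaks covered less than 10 kb of it on average over the 2 cultures, and when no H3K4me3 peak of either culture lay within 5 kb. Of the 7736 loci, 4429 had a peak in both cultures and 4059 of those were small. An H3K4me3 peak lay within 5 kb of 2876 small loci, and the remaining 1183 form the set described here.

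H9, a widely used human embryonic stem cell line, was differentiated toward midbrain dopamine neurons, and its neural progenitors were taken on day 11. All cultures began in Neurobasal, N2 and B27 with L-glutamine, SHH C25II, LDN, SB431542, the Rock inhibitor Y-27632 and 0.7 µM CHIR99021, a GSK3 inhibitor that activates canonical WNT signalling. LDN, SB431542 and SHH were later withdrawn from all of them. Boost-Chir cultures received 7.5 µM CHIR99021 from day 4 to day 10, and the concentration given to Low-Chir cultures in that time is not stated beyond a range that starts at 0.7 µM. From day 10 every culture was in Neurobasal and B27 with L-glutamine, BDNF, ascorbic acid, GDNF, TGFβ3, dibutyryl cAMP and 3 µM CHIR99021. Chromatin immunoprecipitation and sequencing was done on 1 library per mark and culture, so no difference below has a replicate check and no p-value is given. The comparison sets the stronger WNT activation against the weaker one for both marks. The cell type named by the labels was not checked against marker genes, because peaks were not assigned to genes here.

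H3K27me3 is written by Polycomb repressive complex 2 and read by canonical Polycomb repressive complex 1, and it accompanies silencing of developmental genes. In stem cells and progenitors it is best known from CpG islands at promoters, where it often shares a locus with H3K4me3 and can spread into broad domains. It is also found in small patches away from promoters, beside broad domains or on their own. In a bulk culture, fewer cells with the mark at a locus and less of the mark in each cell cannot be told apart.

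The loci were short, faint and patchy. Their mean covered length had a median of 1094 bp and ran from 200 to 9961 bp, with the middle part of the set between 509.5 bp (25th percentile) and 2557 bp (75th percentile). In Low-Chir, peaks covered a median of 1118 bp per locus with 3 peaks, and in Boost-Chir a median of 1031 bp, also with 3 peaks. A single peak made up 27.6% of the loci in Low-Chir and 28.7% in Boost-Chir. From its first to its last peak a locus spanned a median of 3869 bp, of which a median of 35.2% was under peaks in an average culture. Small loci near H3K4me3 were filled to 48.4%, and a single peak made up 14.6% of them in Low-Chir and 16.1% in Boost-Chir. Large domains, defined by a mean covered length of 10 kb or more, were filled to 74.0%. In total the 1183 loci had 2335 kb (Low-Chir) and 2108 kb (Boost-Chir) under peaks, and the 370 large domains 9094 and 8332 kb.

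Enrichment at these loci was low in both cultures. It was taken at the leading summit, the summit of the peak with the highest −log10 q, as the reads there minus their local background, divided by the genome-wide background of the library. That background was 3.12 reads in Low-Chir and 3.03 in Boost-Chir, which makes the Boost-Chir library 0.971 times as deep. The median enrichment was 5.40 times the genome background in Low-Chir and 5.18 times in Boost-Chir, from medians of 21 and 19 reads. Small loci near H3K4me3 had medians of 6.60 and 5.92, and large domains 11.6 and 10.5. The faintest leading summits held 13 and 12 reads. In both lists the leading peak was among the stronger 50% of all H3K27me3 peaks at 603 loci (51.0%, exact 95% interval 48.1 to 53.9), and among the weaker 50% in both at 230.

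Many small loci far from H3K4me3 were seen in 1 culture alone. Of 3288 small loci far from H3K4me3, 1183 (36.0%, 34.3 to 37.6) had a peak in both cultures, while 934 had one only in Low-Chir and 1171 only in Boost-Chir. Of 4078 small loci near H3K4me3, 70.5% (69.1 to 71.9) had peaks in both. The loci of 1 culture alone were shorter still, with medians of 285 (Low-Chir) and 263 bp (Boost-Chir). Strong peaks recurred more often. Where the leading Low-Chir peak had a −log10 q of 8 or more, 377 of 398 loci far from H3K4me3 (94.7%, 92.0 to 96.7) also had a Boost-Chir peak. The share starting from Boost-Chir was 94.3% (91.4 to 96.5) of 353. Near H3K4me3 these shares were 96.6% (95.6 to 97.5) of 1574 and 98.1% (97.3 to 98.8) of 1396, so the 2 kinds were much closer at this strength. Recurrence is part of how the loci were chosen, so these shares describe the selection and are not a finding about it.

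The peaks of the 2 cultures often lay side by side rather than on top of each other. At 318 of the 1183 loci (26.9%, 24.4 to 29.5) no single base was under a peak in both cultures, and the peaks were neighbours within the joining distance. This was so at 13.3% of all 4429 loci in both cultures. It was so at 9.35% (8.31 to 10.5) of small loci near H3K4me3 and at 0 of 370 large domains, with an exact upper limit of 0.992%. Of the length covered in Low-Chir, 47.4% was also covered in Boost-Chir, against 58.7% at small loci near H3K4me3 and 81.2% in large domains. The shares fell with length and differed between the 2 kinds at equal length. Among loci under 500 bp, peaks failed to overlap at 69.8% (64.1 to 75.04) far from H3K4me3 and 57.1% (50.9 to 63.1) near it. From 500 to 1000 bp these shares were 34.3% (28.6 to 40.4) and 22.3% (18.5 to 26.5), and from 1000 to 2500 bp 7.69% (5.04 to 11.1) and 1.88% (1.12 to 2.96). Above 2500 bp nearly every locus of either kind had overlapping peaks. Median Low-Chir enrichment, defined above, was 4.39 far from H3K4me3 and 4.44 near it under 500 bp, and 5.72 and 6.19 from 1000 to 2500 bp. The part of summit strength in the overlap was not tested.

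**Figure D1:**
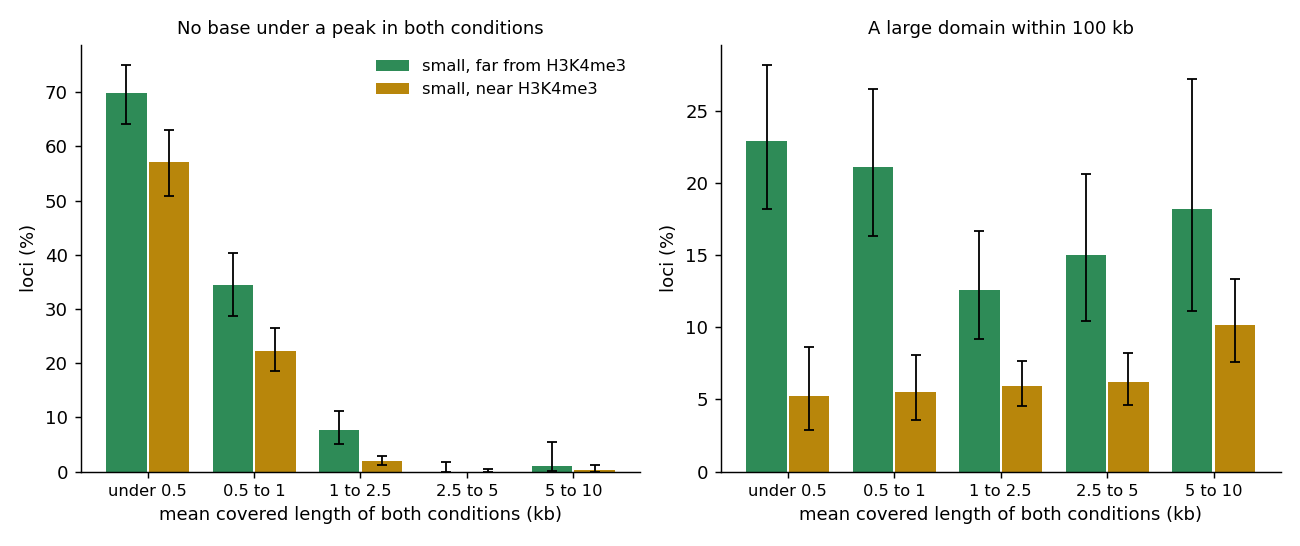
Share of loci, in percent, by mean covered length in kb for small loci far from H3K4me3 (green) and small loci near it (ochre), with exact 95% intervals as error bars. The left panel gives loci with no base under a peak in both cultures and the right panel loci with a large domain within 100 kb. In the left panel the green bars are the higher ones up to 2500 bp, and in the right panel at every length.

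The leading summits of the 2 cultures lay a median of 907 bp apart. They were within 500 bp of each other at 384 loci (32.5%, 29.8 to 35.2), a share that depends on the tolerance, with 14.0% at 200 bp and 53.3% at 1 kb. Within 500 bp, the share over all loci in both cultures was much the same, at 33.5%. Small loci near H3K4me3 had a share of 36.1% (34.3 to 37.9) and large domains one of 16.2% (12.6 to 20.4). By length the order of the 2 kinds was not the same throughout. The share far from and near H3K4me3 was 38.2% and 42.9% under 500 bp, 32.1% and 40% from 500 to 1000 bp, and 30.8% and 39.0% from 1000 to 2500 bp. From 2500 to 5000 bp it was 36.4% and 31.7%, and from 5000 to 10000 bp 14.1% and 29.7%.

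Broad Polycomb domains lay closer to these small loci than to small loci near H3K4me3. A large domain lay within 100 kb of 212 loci (17.9%, 15.8 to 20.2), against 6.57% (5.69 to 7.54) of small loci near H3K4me3. The difference was present at every length: under 500 bp the shares were 22.9% and 5.22%, and from 5000 to 10000 bp 18.2% and 10.2%. Of the 212 loci, 98 lay within 20 kb of the domain. Another H3K27me3 locus of any kind lay within 10 kb of 44.9% (42.0 to 47.8) of the loci and of 20.5% (19.1 to 22.04) of small loci near H3K4me3. The median distance to the nearest other locus was 13.2 kb, against 60.5 kb at small loci near H3K4me3 and 9.45 kb at large domains. Still, 590 of the 1183 loci lay more than 1000 kb from any large domain. The nearest H3K4me3 peak was a median of 39.2 kb away, with 123 loci between 5 and 10 kb and 126 beyond 200 kb.

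The 135 domains with small loci nearby mostly had 1 (84 domains) or 2 (36 domains). The largest number, 7, surrounded a domain on chromosome 15 at 69839839 to 69907470 that was covered over 40.2 (Low-Chir) and 34.6 kb (Boost-Chir). Its 7 small loci together held 8.10 and 10.0 kb, and 5 of them were longer in Boost-Chir. Another, on chromosome 1 at 3301142 to 3318269, had 5 small loci, with 12.7 (Low-Chir) and 9.60 kb (Boost-Chir). The 4 loci around the domain on chromosome 19 at 3346595 to 3374462 were all longer in Boost-Chir, with 9.76 and 13.6 kb, while the domain itself held 16.8 and 16.3 kb. The 4 around the domain on chromosome 1 at 18941869 to 19006778, which held 43.7 and 30.6 kb, were all shorter, with 5.87 and 2.01 kb. Around these domains the small loci thus went either way.

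The densest run within 1000 kb was on chromosome 17 at 45798135 to 46554738, where 16 loci lay in 757 kb among 23 other H3K27me3 loci. Their mean covered lengths ran from 266 to 6462 bp, and together they held 25.6 (Low-Chir) and 26.6 kb (Boost-Chir). In Boost-Chir 5 were shorter and 11 longer. The longest, at 46399599 to 46420273, had 7641 bp under 16 peaks in Low-Chir and 5283 bp under 14 peaks in Boost-Chir. Its leading summits held 25 reads in both. The last locus of the run, at 46549805 to 46554738, stood 4.19 kb from a large domain.

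H3K27me3 covered slightly less of a typical small locus in Boost-Chir, as it did at the other kinds of locus. The median ratio of covered length, Boost-Chir over Low-Chir, was 0.928 (distribution-free 95% interval 0.899 to 0.966, n = 1183 loci). It was 0.897 (0.876 to 0.916) at small loci near H3K4me3 and 0.951 (0.937 to 0.966) in large domains. In Boost-Chir 664 loci were shorter (56.1%, 53.2 to 59.0), against 60.1% of all loci in both cultures. Of the rest, 515 were longer and 4 equal. The ratio of summit enrichment had a median of 0.929 (0.917 to 0.952), against 0.921 (0.912 to 0.930) at small loci near H3K4me3 and 0.902 (0.888 to 0.918) in large domains. The enrichment ratio was thus below 1 in every class of H3K27me3 locus. A difference between the cultures and a difference between 2 immunoprecipitations cannot be told apart with 1 library of each. These intervals cover the spread over loci only, which share their 2 libraries.

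Single loci spread widely around that median, in both directions. At least 2 times shorter in Boost-Chir were 230 loci (19.4%, 17.2 to 21.8), against 15.9% of all loci in both cultures. At least 2 times longer were 168 (14.2%, 12.3 to 16.3), against 9.26% of all. In each of the 5 length classes, the share at least 2 times longer was higher far from H3K4me3 than near it. Small loci near H3K4me3 had 15.9% and 8.38%, and large domains 18 and 1 of 370. All loci together include many longer ones, and by length the order of the 2 small kinds changed. Far from and near H3K4me3, loci at least 2 times shorter were 52 of 288 and 45 of 268 under 500 bp. From 500 to 1000 bp they were 77 of 265 and 139 of 435, and from 1000 to 2500 bp 59 of 325 and 192 of 957. Up to 5000 bp they were 33 of 206 and 64 of 755, and up to 10000 bp 9 of 99 and 17 of 461. The middle 50% of the length ratios ran from 0.586 to 1.38, and in large domains from 0.868 to 1.03. Of the 5 length classes the spread was widest from 500 to 1000 bp, where the middle 50% ran from 0.441 to 1.88. In that length class 77 loci were at least 2 times shorter and 62 at least 2 times longer. Small loci near H3K4me3 of the same length ran from 0.417 to 1.56, a similarly wide range. Among the 603 loci with strong peaks in both lists, 79 were at least 2 times shorter and 45 at least 2 times longer. Their median ratio was 0.927 (0.896 to 0.962). These calls were not counted over strong loci of all kinds, so whether the 2 counts are unusual for strong loci is not known.

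**Figure D2:**
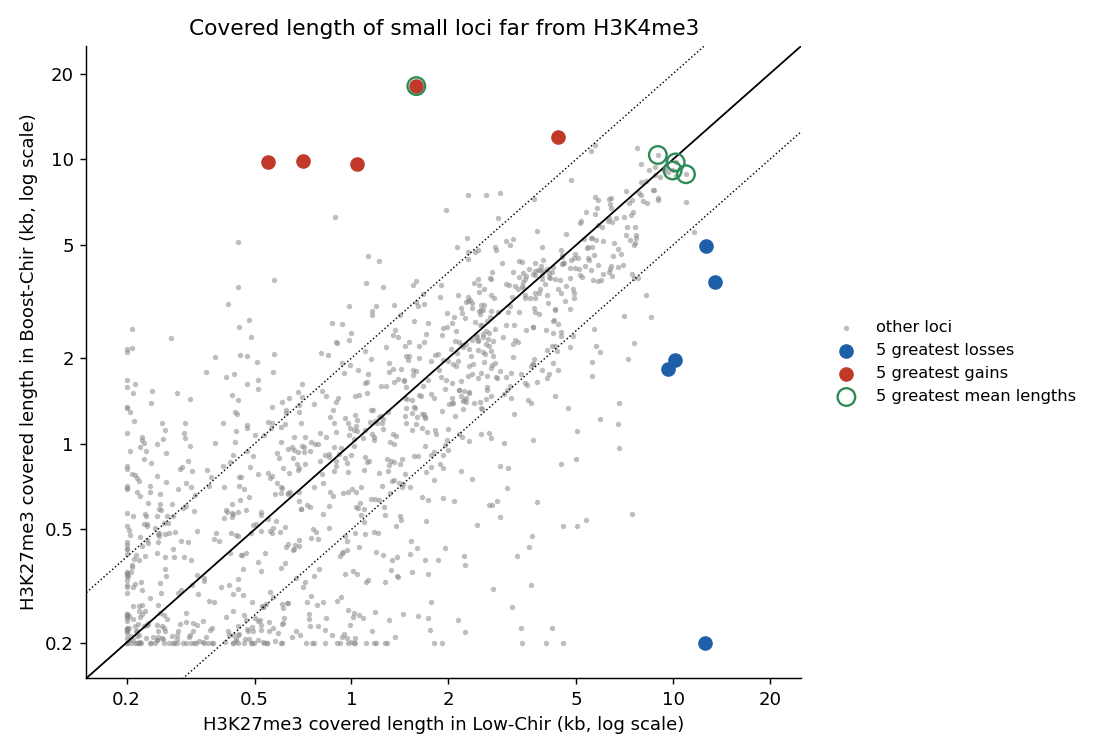
H3K27me3 covered length of each of the 1183 loci in Low-Chir (x axis) and Boost-Chir (y axis), in kb on log scales, with equality as a solid line and a 2-fold difference as dotted lines. The 5 greatest losses (blue) and gains (red) in bp lie beyond the dotted lines, while 4 of the 5 loci with the greatest mean length (green rings) lie close to equality.

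Summit reads moved far less than covered length. Enrichment was at least 1.5 times lower in Boost-Chir at 86 loci (7.27%), against 6.37% of all loci in both cultures, and at least 1.5 times higher at 19 (1.61%), against 1.4%. Exact Poisson 95% intervals of the reads, scaled by depth, were apart at 0 of the 1183 loci in either direction. Over all 4429 loci they were apart at 1 lower (0.0226%) and 0 higher (0%). Overlap of 2 such intervals does not show that the reads were equal. A summit enters only if it was called as a peak in both cultures, with at least 13 reads in Low-Chir and 12 in Boost-Chir among these loci, so the rule leaves little room for intervals that are apart. Length and enrichment went the same way at 793 loci (67.0%, 64.3 to 69.7), a share not computed for all 4429 loci. Both measures come from the same called peaks of the same libraries. They are therefore not independent, here or in the groups by length change that follow. The loci at least 2 times shorter had a median enrichment ratio of 0.801 (0.776 to 0.824), and those at least 2 times longer one of 1.18 (1.13 to 1.22).

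**Figure D3:**
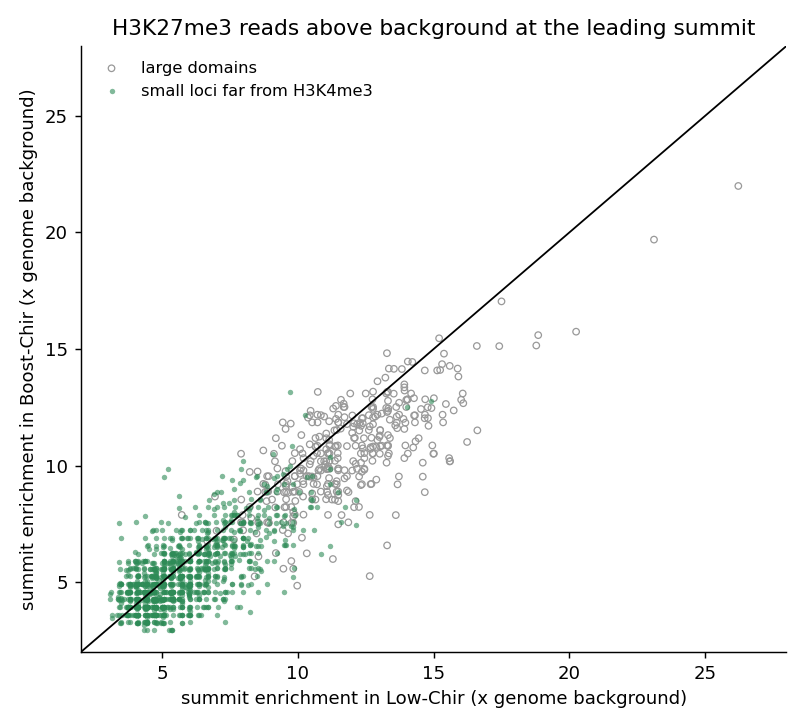
Reads above the local background at the leading summit, in multiples of the genome-wide background, in Low-Chir (x axis) and Boost-Chir (y axis) for small loci far from H3K4me3 (green) and large domains (open circles), with equality as a line. The small loci gather at the lower left, with medians of 5.40 and 5.18, and the large domains lie higher and mostly below the line.

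At the 5 greatest losses of covered length, runs of 12 to 26 peaks in Low-Chir stood against 1 to 13 peaks in Boost-Chir. On chromosome 16 at 79911885 to 79939142, 12598 bp under 19 peaks in Low-Chir stood against 200 bp under 1 peak in Boost-Chir. No base there was under a peak in both cultures, and the leading summits lay 2736 bp apart. They held 29 reads (exact Poisson 95% interval 19.4 to 41.6) in Low-Chir and 15 reads (8.40 to 24.7) in Boost-Chir. On chromosome 2 at 223097018 to 223132732, 13526 bp under 26 peaks became 3707 bp under 9 peaks, with 27 and 22 reads. These 2 loci lay 91.4 and 17.4 kb from a large domain. On chromosome 12 at 117935273 to 117952924, far from any large domain (2785 kb), 10103 bp under 12 peaks stood against 1964 bp under 7, and the reads were 29 and 18. Chromosome 19 at 31906915 to 31922610 had 9613 and 1834 bp under 21 and 7 peaks, with 24 and 15 reads. Chromosome 18 at 47427474 to 47448754 had 12656 and 4965 bp under 20 and 13 peaks, with 30 and 21 reads. At all 5 the summit reads were lower in Boost-Chir, and at all 5 the Poisson intervals overlapped. The 2 leading summits of a locus lay 1143 to 22145 bp apart, so the reads were counted at different places. These loci were picked for their loss of length in the same data, so the lower reads are not separate evidence.

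At the 5 greatest gains, 2 to 10 Low-Chir peaks stood against 11 to 37 of Boost-Chir. On chromosome 8 at 139255554 to 139290423, 1591 bp under 5 peaks in Low-Chir stood against 18062 bp under 37 peaks in Boost-Chir, with 22 reads (13.8 to 33.3) and 28 reads (18.6 to 40.5) at the summit. This locus lay 218 kb from the nearest H3K4me3 peak and 4379 kb from a large domain. Chromosome 1 at 10773127 to 10793626 had 552 bp under 2 peaks and 9804 bp under 19, a ratio of 17.8. Chromosome 17 at 26232148 to 26250739 had 709 and 9884 bp, a ratio of 13.9. On chromosome 9 at 126617415 to 126631309 the lengths were 1044 and 9622 bp and the reads 21 and 30. On chromosome 2 at 158774572 to 158802063, 4392 bp became 11967 bp, and the reads went from 20 to 33, the greatest enrichment ratio of the 5 at 1.89. The leading summits of the 2 cultures lay 343 to 4178 bp apart at these 5 loci, which were picked for their gain of length. The gained loci lay 114 kb or more from any large domain. By size, 13 loci lost and 9 gained at least 5 kb, against 83 and 18 of all 4429 loci.

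**Figure D4:**
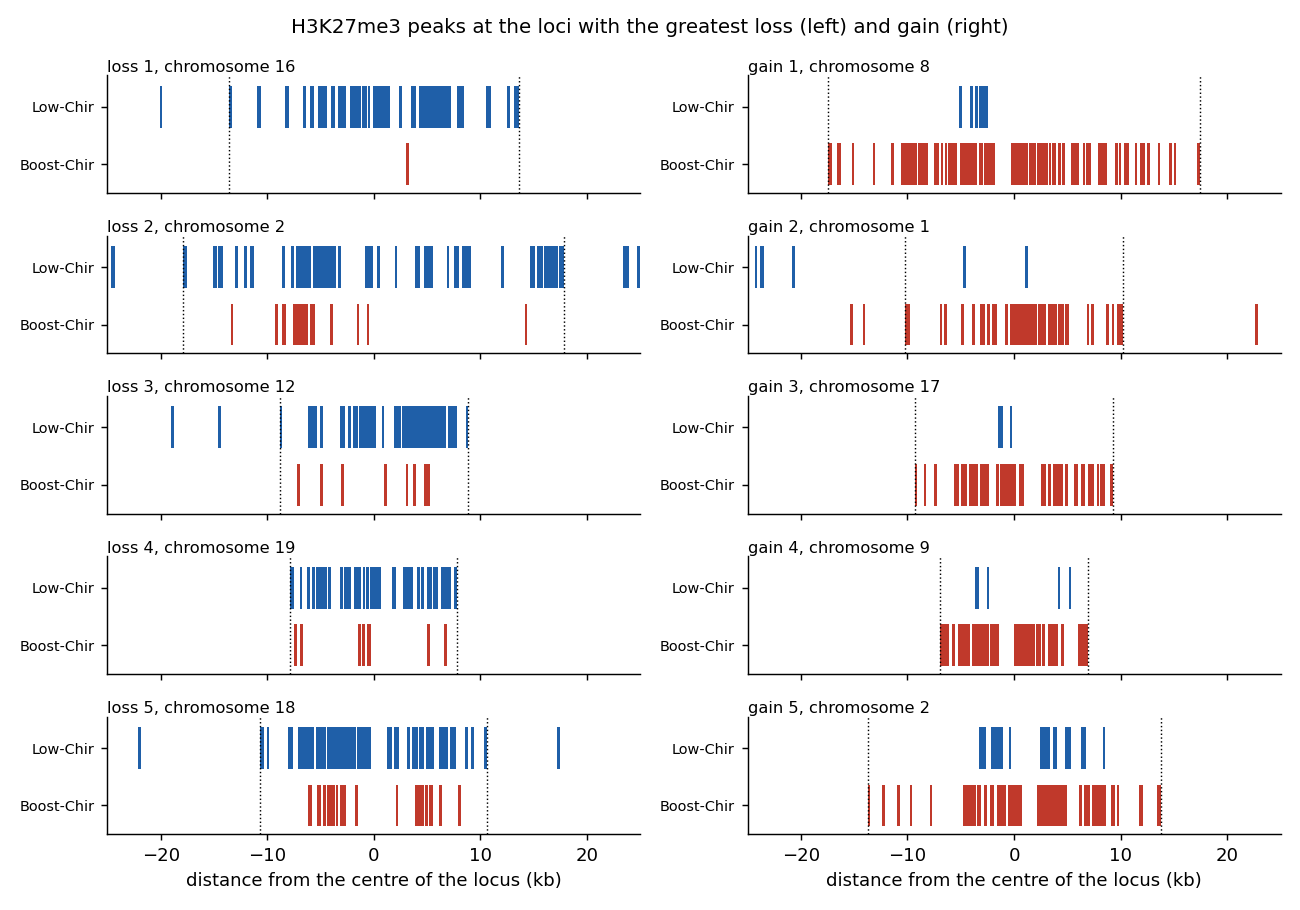
H3K27me3 peaks of Low-Chir (blue) and Boost-Chir (red) within 25 kb of the centre of the 5 loci with the greatest loss (left) and the 5 with the greatest gain (right), ranked from the top. The x axis is the distance from the centre in kb and dotted lines mark the ends of the locus. At the top left 19 peaks in Low-Chir face 1 in Boost-Chir, and at the top right 5 face 37.

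Small loci beside a shortened large domain were mostly shorter as well. Of the 212 loci within 100 kb of a large domain, 22 stood beside 13 domains that were at least 1.5 times shorter in Boost-Chir. Of these 22 loci 18 were shorter, 11 of them at least 2 times (a call made at 15.9% of all loci), and their median ratio was 0.512 (0.339 to 0.837). Any shortening was seen at 60.1% of all loci in both cultures and at 56.1% of the 1183 loci. Beside the 121 domains that changed by less than 1.5 times, 98 of 189 loci were shorter, 36 of them at least 2 times, and the median ratio was 0.982 (0.862 to 1.08). Across the 212 loci the log2 length ratios of locus and domain had a Pearson correlation of 0.25 and a Spearman correlation of 0.23. For summit enrichment these were 0.041 and 0.017. The points share their libraries, and loci beside 1 domain share that domain, so the correlations are descriptions. A single domain on chromosome 16 at 80030584 to 80057837, with 15.9 (Low-Chir) and 5.21 kb (Boost-Chir), contributed 4 loci. All 4 were at least 2 times shorter, with 17.2 (Low-Chir) and 1.76 kb (Boost-Chir) together, and the greatest loss of the whole set was one of them. Without this domain 14 of 18 loci were shorter, 7 of them at least 2 times, with a median ratio of 0.630.

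**Figure D5:**
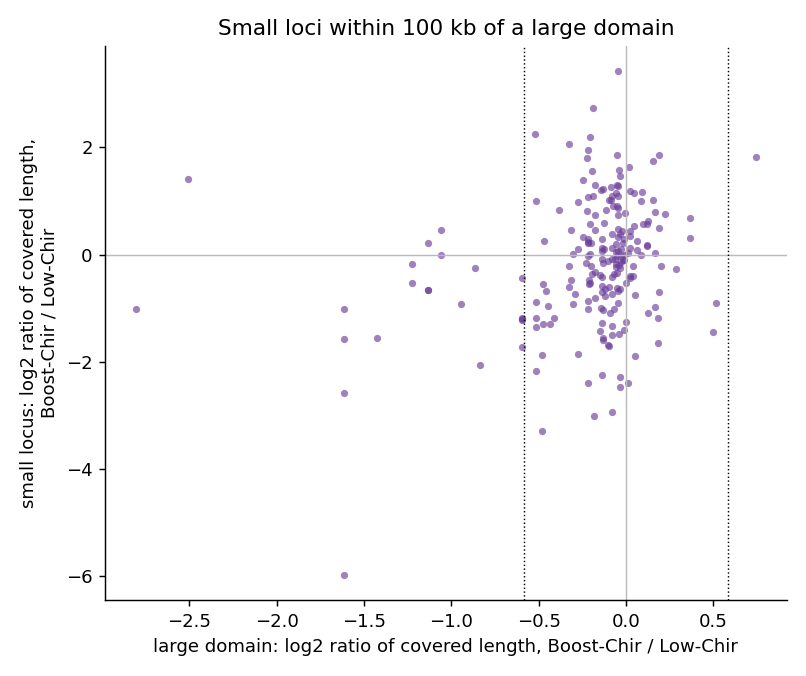
Log2 ratio of covered length, Boost-Chir over Low-Chir, of the 212 small loci within 100 kb of a large domain (y axis) against that of the domain (x axis), with dotted lines at a 1.5-fold change of the domain. To the left of the first dotted line 18 of 22 loci lie below 0. Of all loci in both cultures, 60.1% were shorter in Boost-Chir.

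By distance to H3K4me3, the nearest loci of the set had the lowest length ratio. Small loci nearer still, within 5 kb and outside the set, had a higher median of 0.897 (0.876 to 0.916). The 123 loci between 5 and 10 kb from an H3K4me3 peak had a median ratio of 0.796 (0.676 to 0.943), with 34 at least 2 times shorter (27.6%, against 15.9% of all loci in both cultures) and 11 at least 2 times longer (8.94%, against 9.26%). Beyond 200 kb 31 of 126 loci were at least 2 times shorter (24.6%) and 24 at least 2 times longer (19.0%), and in the classes between, these shares were 17.3% to 17.9% and 14.2% to 14.3%. From 10 to 50 kb the median ratio was 0.935 (0.894 to 0.991), from 50 to 200 kb 0.943 (0.889 to 1.004), and beyond 200 kb 0.924 (0.789 to 1.009). The interval of the nearest class overlapped those of the other 3. By distance to a large domain the ratio was 0.862 (0.690 to 1.06) from 3 to 20 kb and 0.904 (0.850 to 0.943) beyond 1000 kb, with 0.963 and 0.968 in between. The 2 loci just inside the 5 kb limit, on chromosome 17 at 34065995 to 34070166 and on chromosome 19 at 17564544 to 17568289, lay 5020 and 5021 bp from H3K4me3. The 2 just outside, on chromosome 11 at 43567339 to 43571877 and on chromosome 5 at 1650357 to 1655720, lay 4983 and 4921 bp away. All 4 were shorter in Boost-Chir, with 2312 and 1870 bp at the first and 3064 and 1424 bp at the third. H3K4me3 of Boost-Chir alone removed 143 small loci from the set and H3K4me3 of Low-Chir alone 160.

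The longest loci of the set approached the length of large domains. On chromosome 11 at 69626563 to 69640889, H3K27me3 covered 10178 (Low-Chir) and 9744 bp (Boost-Chir), 107 kb from the nearest H3K4me3 peak. Chromosome 2 at 45488761 to 45511187 had 10958 and 8852 bp, chromosome 1 at 228187321 to 228202934 had 8960 and 10345 bp, and chromosome 5 at 1437845 to 1451726 had 9961 and 9125 bp. The fifth by mean length is the greatest gain, on chromosome 8. Apart from that locus, the length ratios ran from 0.808 to 1.15, while the summit enrichment was lower in Boost-Chir at all 4, with ratios from 0.699 to 0.897. The next loci above the 10 kb limit, with means of 10182 and 10196 bp, lay on chromosome 14 at 74701379 to 74713844 (10501 and 9862 bp) and on chromosome 12 at 95704716 to 95727470 (15336 and 5056 bp). Of the 370 large domains, 49 were as far from H3K4me3 as the small loci.

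The 6 strongest summits differed in their local background. On chromosome 1 at 156883625 to 156899545, the leading summit held 48 reads in Low-Chir and 42 in Boost-Chir over local backgrounds of 4.18 and 4.09 reads, and the covered lengths were 9472 and 9369 bp. Similar loci lay on chromosome 4 at 4222830 to 4233637 (36 and 41 reads), chromosome 11 at 22359373 to 22372371 (38 and 35) and chromosome 19 at 46094024 to 46107230 (38 and 33). At these 4 the local background was at most 4.18 reads. The other 2 had higher values. On chromosome 2 at 91772576 to 91787256, 62 and 51 reads stood over backgrounds of 15.4 and 12.3, so that the authors' fold enrichment was only 3.82 and 3.91. On chromosome 1 at 149717533 to 149720198, 38 and 45 reads stood over 7.70 and 5.12, with a fold enrichment by the authors of 4.44 and 7.50. A local background of at least 2 times the genome background in both cultures was found at 5 of the 1183 loci (0.423%, 0.137 to 0.984). Over all 4429 loci the share was similar, at 0.361%. Of the 5 loci, 2 were neighbours on chromosome 2, 24.9 kb apart. The most extreme was on chromosome 8 at 144751571 to 144751778, with 45 and 44 reads over 17.6 and 19.4.

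Some small loci stood alone in long stretches without the mark. The most isolated was on chromosome 12 at 81099939 to 81104356, 3377 kb from any other H3K27me3 locus, with 3709 (Low-Chir) and 2903 bp (Boost-Chir). Its leading summits lay 227 bp apart and held 25 and 22 reads. Chromosome 18 at 52607176 to 52623950 followed, 2165 kb from the next locus, with 7534 and 5002 bp. Both were well above the median size of the set. The next, on chromosome 14 at 46173796 to 46180801 (946 and 214 bp) and on chromosome 7 at 111889483 to 111890848 (224 and 1031 bp), were faint, with 15 to 18 reads, and at the first of these no base was covered in both cultures.

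The joining distance also decides what is 1 locus. Gaps of 2992 and 2986 bp were bridged at the widest, on chromosome 20 at 61746641 to 61750805 and chromosome 21 at 39839599 to 39850438. The narrowest gaps that kept loci apart, 3002 and 3005 bp, were beside chromosome 17 at 46385889 to 46395646 and chromosome 16 at 80088636 to 80095112.

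The loci were spread over all 22 chromosomes, in uneven shares of the H3K27me3 loci found there. They made up 26.7% of all loci in both cultures, with the highest shares on chromosome 20 (56 of 138, 40.6%, 32.3 to 49.3) and chromosome 22 (47 of 119, 39.5%, 30.7 to 48.9). The lowest share was on chromosome 6 (43 of 240, 17.9%, 13.3 to 23.4). The median enrichment ratio was below 1 on 20 of 22 chromosomes and the median length ratio on 19. The lowest length ratio was on chromosome 16, with 0.676 (0.586 to 0.924) over 53 loci. The 4 loci beside the shortened domain described above lie there, and their part in this length ratio was not tested. The highest was on chromosome 21, with 1.59 (0.700 to 1.98) over 13 loci.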

How the data were processed

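ChIP-seq libraries of H3K4me3, H3K27me3 and input were made once each in Low-Chir and Boost-Chir cultures. The authors deposited 1 peak list per antibody library, 4 in all, and the input samples were not analysed here on their own. Reads were handled with cutadapt 1.6, BWA 0.7.12 and Picard with hg19 as the build, per the submitters' processing notes. Order and settings are not given there. Each list was called against the input of its own culture, per the peak names in the deposited files. For the peak caller and its threshold: not given in the sources used here. Per the layout of the deposited files, the authors give each peak a fold enrichment (a ratio to local background), a −log10 p and a −log10 q. The deposited score is 10 times the −log10 q without its decimals and was left aside. All of these are values the authors assigned to single peaks.

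Reads and local background at each summit were solved from the deposited fold and −log10 p, with 1 added to reads and to background in the fold and with a Poisson tail for p. For 100% of H3K27me3 peaks the solved values gave back the authors' −log10 p to within 0.001. The lists give no read totals, so depth is known only relative to the other library, through the genome-wide background. Shares carry exact (Clopper-Pearson) 95% intervals and medians distribution-free binomial ones. Both treat loci as independent and cover counting error or spread over loci only. The rule for loci and the solution for reads were tested on simulated data.

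Positions are on hg19, counted from 1. The gene table at hand follows GRCh38.p14, and peaks were therefore not linked to genes and sequences not printed. The loci and the rules for naming them were chosen with earlier results of these data known. Named were the 6 loci with the highest mean enrichment, the 5 longest, the 5 with the greatest loss and the 5 with the greatest gain in bp, the 4 most isolated, the densest run within 1 Mb, and the loci next to each limit of the rule. Domains with the most small loci beside them, and the loci with a raised background, were singled out after their values were seen. Alternatives changed the joining distance, the peaks used, the length and H3K4me3 limits, the summit tolerance and the measure of enrichment. Python 3.11.15, numpy 2.4.6, scipy 1.17.1 and matplotlib 3.10.9 were used.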

Additional observations from a re-analysis of the deposited data

How the results depend on the processing

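No paired analysis was possible because only 1 library was made per mark and culture. With the stronger 50% of each H3K27me3 list, 701 loci met the rule in place of 1183, 153 of them at least 2 times shorter in Boost-Chir and 90 at least 2 times longer, and the median length ratio was 0.889. Joining within 1 kb gave a length ratio of 0.899, a shared leading summit at 40.4% of loci and a large domain within 100 kb of 22.7%. A summit tolerance of 200 bp gave 14.0% and one of 1 kb 53.3%, and a domain distance of 50 kb gave 12.8%. The deposited fold enrichment is a ratio to local background within each library and was not divided by depth. Its median ratio was 0.967 in place of 0.929. The length ratio was below 1 under all 7 alternatives and the enrichment ratio under all 8. The restriction to 1 list of H3K4me3 peaks and to loci without a raised background was chosen after seeing the data. At medians of 21 and 19 reads per leading summit, depth limits what a single locus can show.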

Other observations

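The X chromosome was outside the set. By the same rule 19 of its 132 H3K27me3 loci would have been kept, with a median covered length of 1841 (Low-Chir) and 948 bp (Boost-Chir). Their median length ratio was 0.493 (0.377 to 1.59), an interval that includes 1, and their median enrichment ratio was 0.877. Of the 19, 10 were at least 2 times shorter in Boost-Chir and 2 at least 2 times longer. Over all autosomal loci in both cultures these calls were made at 15.9% and 9.26%. The shares over the 70 X loci with a peak in both cultures were not computed, so no trait of the X chromosome can be read from these few loci.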
